A study of Rattus norvegicus with 10 samples.

Results

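The sodium-potassium pump genes described here are 3 beta subunit genes, Atp1b1, Atp1b2 and Atp1b3, and 2 genes of FXYD proteins, Fxyd1 and Fxyd5, taken by gene symbol from the 18025 genes listed for fetal rat hearts. They were read in hearts of Sprague-Dawley rat fetuses at embryonic day 19.5, in 5 libraries of control pregnancies (CON) and 5 libraries of hyperglycemic pregnancies (HG). Dams of 3 months were injected intraperitoneally after mating on each of 3 days, with streptozotocin, which destroys pancreatic beta cells and so lowers insulin, for HG or with its citric acid buffer for CON. This timing is that of the methods, whereas the introduction of the study speaks of hyperglycemia induced before pregnancy. All animals were wild type, dams counted as diabetic above 16 mM non-fasting glucose, and the fetuses themselves received no injection. Neither the labels nor the methods tie a library to a dam or a litter, and HG is the state of the dam. A p-value thus measures the spread between these libraries, which may be technical, between fetuses or due to litters. If a group came from few dams, a difference between the groups cannot be told apart from one between dams. The methods also speak of pooled RNA from the 10 samples and 1 legend of isolated cardiomyocytes, whereas the labels give hearts and the values differ from library to library.

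The sodium-potassium pump moves sodium out of the cell and potassium in, at the cost of ATP, and so keeps the sodium gradient that drives the excitation of heart muscle and the removal of calcium by the sodium-calcium exchanger. Its alpha subunit carries the catalytic and ouabain-binding sites, its glycosylated beta subunit is needed to fold the alpha subunit and bring it to the membrane, and small FXYD proteins sit beside the pair and tune its affinity for ions. In heart muscle the main FXYD protein is phospholemman, the product of Fxyd1, which holds the pump back until it is phosphorylated.

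The promoters of the pair of members that differed between the groups are shown, because they differ from each other in base composition and in motif content. Promoter windows of 300 bases, from 250 before to 50 after the start of the transcript, were matched for 4 of the 5 members in RefSeq (GRCr8). The window of Fxyd1 lies at chr1:95418531-95418830 on the minus strand and is printed 5′ to 3′ with every match to the E-box CANNTG in capitals, a pattern that reads alike on both strands.
Fxyd1: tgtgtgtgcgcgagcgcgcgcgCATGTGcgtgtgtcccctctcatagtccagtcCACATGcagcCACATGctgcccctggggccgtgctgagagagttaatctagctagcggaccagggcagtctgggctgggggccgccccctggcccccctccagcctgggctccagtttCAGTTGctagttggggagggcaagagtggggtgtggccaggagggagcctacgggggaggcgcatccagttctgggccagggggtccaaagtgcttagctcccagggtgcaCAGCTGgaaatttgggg
That of Atp1b3 lies at chr8:105821102-105821401 on the minus strand, and its capitals mark the GC box GGGCGG on either strand.
Atp1b3: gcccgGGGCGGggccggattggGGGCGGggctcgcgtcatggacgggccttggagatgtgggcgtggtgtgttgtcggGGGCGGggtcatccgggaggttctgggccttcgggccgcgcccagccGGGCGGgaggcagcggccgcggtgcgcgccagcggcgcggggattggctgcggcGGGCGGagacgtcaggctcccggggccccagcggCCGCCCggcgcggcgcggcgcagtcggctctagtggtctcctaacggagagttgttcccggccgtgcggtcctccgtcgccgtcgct
The Fxyd1 window held 5 E-boxes and 1 GC box, with a GC content of 65.3%. At least 1 E-box was found in 72.1% of the 33465 rat promoter windows of this length, and 1.77% held 5 or more. In the Atp1b3 window there were 6 GC boxes and 0 E-boxes at a GC content of 77.7%, which is higher than in 98.2% of the windows. A GC box was present in 33.1% of all windows, and 1.15% held 6 or more. In each of these 2 windows, the motif in capitals is the one whose count was rarest among all windows. TATA boxes and CCAAT boxes were counted as well, with 0 and 0 in the Fxyd1 window and 0 and 2 in the Atp1b3 window. At least 2 CCAAT boxes were found in 11.2% of all windows. The shares were not adjusted for GC content. Such matches describe letters and do not show that a factor binds there.

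FPKM are reads per gene divided by gene length and library size, so that levels can be compared between genes. In both groups the members stood in the same order of level, with Fxyd1 first, then Atp1b1, Atp1b3, Fxyd5 and Atp1b2. Fxyd1 had the 330th and Atp1b1 the 400th highest mean FPKM of the genes listed. The mean FPKM of Fxyd1 was 1.29 times that of Atp1b1 in CON and 1.13 times in HG. Atp1b1 in turn stood 4.42 times above Atp1b3 in CON and 3.88 times in HG. Only the last neighbours in this order, Fxyd5 and Atp1b2, had ranges that overlapped, with Fxyd5 higher in 3 of 5 CON and in 5 of 5 HG libraries. All 5 members passed the filter of a mean of 0.1 FPKM, together with 14542 genes in all.

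Between CON and HG, the beta subunit gene Atp1b3 rose and the phospholemman gene Fxyd1 fell, by factors of 1.13 and 0.864, while Atp1b1, Atp1b2 and Fxyd5 did not pass the test. The call of Atp1b3 was lost with median-of-ratios scaling of the libraries (limma log2 fold change 0.09, adjusted p = 0.117), under which the members called were Fxyd1 and Atp1b2. A gene was called at a Benjamini-Hochberg adjusted p under 0.05 from limma on log2(FPKM + 0.1), a scale on which the change of low genes is understated. Of the 5 members 2 were called, 1 higher and 1 lower in HG, and in the same 2 the groups did not overlap. Across all 14542 genes tested, 40.1% were called, 28.4% higher and 11.8% lower in HG, and the groups did not overlap in 27.4%. The share of members called is thus at the background of this comparison. The median log2 fold change was -0.04 over the members and 0.09 over all genes tested.

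**Figure D1:**
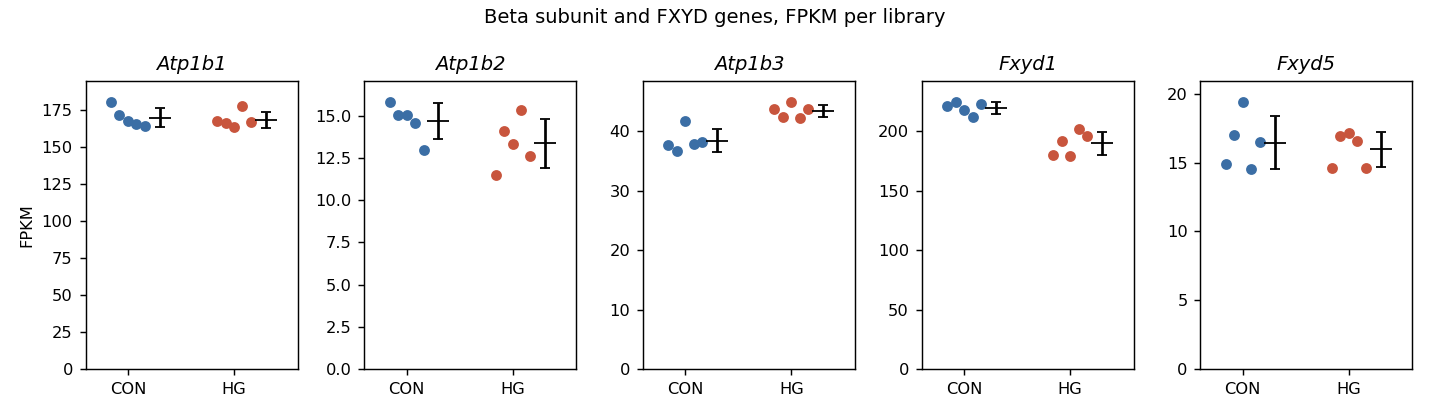
FPKM of the 5 members (vertical axes, each from 0) in the 5 CON (blue) and 5 HG (red) libraries, replicates 1 to 5 from left to right, with the mean and SD of each group as a bar. All HG libraries lie below all CON libraries in Fxyd1 and above them in Atp1b3, and the groups overlap in Atp1b1, Atp1b2 and Fxyd5.

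Atp1b1 encodes the beta subunit isoform that is the main partner of the alpha subunit in heart. It was the most abundant beta subunit gene, with 180.3, 172, 168, 166 and 164 FPKM in CON replicates 1 to 5 and 168, 167, 164, 178 and 167 FPKM in HG replicates 1 to 5. The groups overlapped over most of their range, and the highest value was that of CON replicate 1. The mean went from 169.9 ± 6.56 to 168 ± 5.39 FPKM (SD, n = 5 per group; limma log2 fold change -0.01 with an SE of 0.0360, adjusted p = 0.814). Its sign was not settled, since the log2 fold change ran from -0.10 to 0.01 over 21 alternative settings, with adjusted p of 0.0756 to 0.977. Between 6128 and 7198 reads per library lay behind these values.

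Atp1b2 encodes a beta subunit first described as an adhesion molecule of glia. Its levels were 15.8, 15.0, 15.1, 14.6 and 12.9 FPKM in CON and 11.5, 14.1, 13.3, 15.3 and 12.6 FPKM in HG, in the order of the replicates. HG replicate 4 lay among the CON values and CON replicate 5 among the HG values, so that the groups overlapped. The mean went from 14.7 ± 1.07 to 13.4 ± 1.46 FPKM (SD, n = 5 per group; limma log2 fold change -0.14 with an SE of 0.0766, adjusted p = 0.174). After the libraries were scaled by median-of-ratios factors, which move the median log2 fold change of all genes from 0.09 to 0.01, it was called lower at -0.23 (adjusted p = 0.0455 from limma).

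Atp1b3 encodes a beta subunit found in many tissues. Its levels were 37.7, 36.7, 41.8, 37.8 and 38.3 FPKM in the CON libraries and 43.7, 42.5, 44.9, 42.3 and 43.8 FPKM in HG. Every HG library lay above every CON library, although CON replicate 3 came close to HG replicate 4, the lowest of them. The mean rose from 38.5 ± 1.95 to 43.4 ± 1.09 FPKM, a ratio of 1.13 (SD, n = 5 per group; limma log2 fold change 0.18 with an SE of 0.0396, adjusted p = 0.00396). This call depended on the scaling, since with median-of-ratios factors the log2 fold change was 0.09 (adjusted p = 0.117), and the cause was not tested. In each of the other alternatives it was called. It had 1235 to 1540 reads per library.

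The 3 genes summed to 223 ± 7.16 FPKM in CON and 225 ± 5.65 FPKM in HG. Atp1b3 held 16.1, 16.4, 18.6, 17.4 and 17.8% of this sum in the CON libraries and 19.6, 19.0, 20.2, 17.96 and 19.6% in the HG libraries. Its share was higher by 2.04 percentage points in HG (two-sided exact permutation test, p = 0.0159, adjusted p = 0.0397 over 5 shares and ratios), and the ranges overlapped between CON replicate 3 and HG replicate 4. When CON replicate 1, 2 or 4 or HG replicate 1, 2, 3 or 5 was left out, the adjusted p of this share was 0.0794. The share of Atp1b1 went from 76.2 ± 0.964% to 74.8 ± 0.670% (SD, n = 5 per group; exact permutation test, adjusted p = 0.0661), and that of Atp1b2 from 6.57 ± 0.315% to 5.93 ± 0.544% (adjusted p = 0.0694). These 3 shares add up to 100% in each library and are not independent of each other. A share of messenger RNA says nothing of the share of assembled pumps.

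Fxyd1 encodes phospholemman, the pump inhibitor of heart and skeletal muscle whose phosphorylation by protein kinases relieves the inhibition. It had 221, 224, 218, 212 and 223 FPKM in the CON libraries and 180.5, 192, 179, 202 and 196 FPKM in the HG libraries. All HG values lay below all CON values, and the nearest were HG replicate 4 and CON replicate 4. The mean fell from 219.9 ± 4.88 to 189.9 ± 10.003 FPKM, a ratio of 0.864 (SD, n = 5 per group; limma log2 fold change -0.21 with an SE of 0.0391, adjusted p = 0.00112). Over the 21 alternatives the log2 fold change ran from -0.30 to -0.15, with adjusted p of 0.000202 to 0.0141, so that it was called in each of them. Reads per library numbered 3908 to 5153.

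Fxyd5 encodes dysadherin, an FXYD protein with a long extracellular stretch that is best known from epithelia and their adhesion. Its values were 14.9, 17.0, 19.4, 14.5 and 16.5 FPKM in CON and 14.6, 17.0, 17.1, 16.6 and 14.6 FPKM in HG. The HG values lay within the range of the CON values, whose highest was CON replicate 3. A mean of 16.5 ± 1.94 FPKM in CON stood against one of 16.0 ± 1.26 FPKM in HG (SD, n = 5 per group; limma log2 fold change -0.04 with an SE of 0.0796, adjusted p = 0.732), and without CON replicate 3 the log2 fold change was 0.02. It had the fewest reads of the members, 218 to 306 per library.

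Set against the beta subunit genes, Fxyd1 was lower in HG in every library. Its log2 ratio to the beta sum was -0.02 ± 0.0511 in CON and -0.25 ± 0.0552 in HG (SD, n = 5 per group), a difference of -0.23 (two-sided exact permutation test, p = 0.00794, the smallest that 5 against 5 allow, adjusted p = 0.0397 over 5 shares and ratios). The ratio of Fxyd1 to Atp1b1 was 1.30 ± 0.0485 in CON and 1.13 ± 0.0406 in HG, with no overlap between the groups. Neither ratio moves when a whole library is multiplied by a factor. Within the sum of Fxyd1 and Fxyd5, the share of Fxyd1 was 93.0 ± 0.746% in CON and 92.2 ± 0.686% in HG (exact permutation test, p = 0.127, with the same value after adjustment), which did not pass the test.

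The FXYD family holds further members with known but less studied roles beside the pump, of which Fxyd6 and Fxyd7 are best known from the nervous system and Fxyd2, the gamma subunit, from kidney. Fxyd6 had 30.1, 28.6, 29.4, 28.6 and 30.2 FPKM in the CON libraries and 35.8, 38.6, 36.8, 34.3 and 35.5 FPKM in the HG libraries. It rose without overlap, from 29.4 ± 0.766 to 36.2 ± 1.58 FPKM (SD, n = 5 per group; limma log2 fold change 0.30 with an SE of 0.0385, adjusted p = 9.92e-05). Fxyd7 had 2.24, 3.76, 3.57, 3.77 and 4.67 FPKM in CON and 5.57, 4.95, 6.54, 5.00 and 8.65 FPKM in HG, in the order of the replicates, with the highest level in HG replicate 5. It rose from 3.60 ± 0.872 to 6.14 ± 1.54 FPKM, also without overlap (limma log2 fold change 0.76 with an SE of 0.188, adjusted p = 0.00689), on 29 to 103 reads per library. In the RefSeq gene order Fxyd7 lies between Fxyd5 and Fxyd1 on chromosome 1, so that of these neighbours 1 was not called, 1 was higher and 1 was lower in HG. Fxyd2, at 0.53 on the log2 scale (limma, adjusted p = 0.0853), did not pass the test, and neither did Fxyd3, at -0.25 on 3 to 9 reads (limma, adjusted p = 0.472). Of the 6 FXYD genes tested, 2 were higher and 1 was lower in HG, beside 28.4% higher and 11.8% lower over all genes tested. Their median log2 fold change was 0.13 beside 0.09 over all genes tested. Fxyd1 held 81.1 ± 0.743% of the FPKM of all listed FXYD genes in CON and 75.8 ± 1.19% in HG, while Fxyd6 held 10.9 ± 0.293% and 14.5 ± 0.961% (SD, n = 5 per group).

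**Figure D2:**
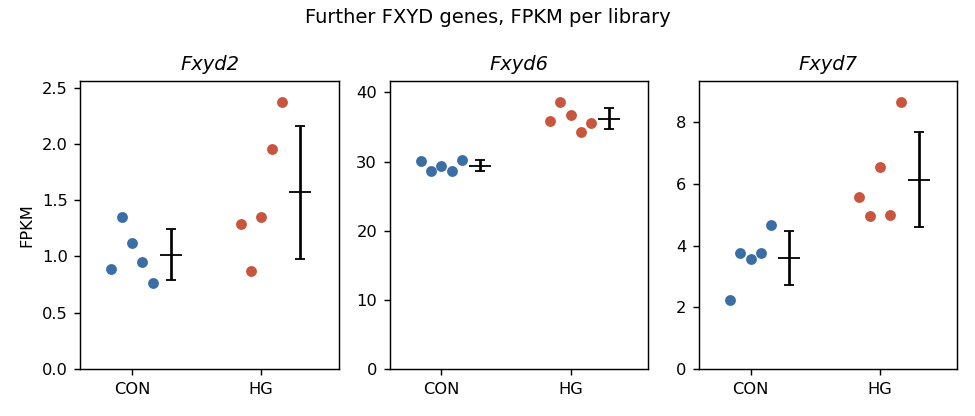
FPKM of Fxyd2, Fxyd6 and Fxyd7 (vertical axes, each from 0) in the 5 CON (blue) and 5 HG (red) libraries, replicates 1 to 5 from left to right, with the mean and SD of each group as a bar. Fxyd6 and Fxyd7 lie higher in all HG libraries than in all CON libraries, and Fxyd2 overlaps.

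**Figure D3:**
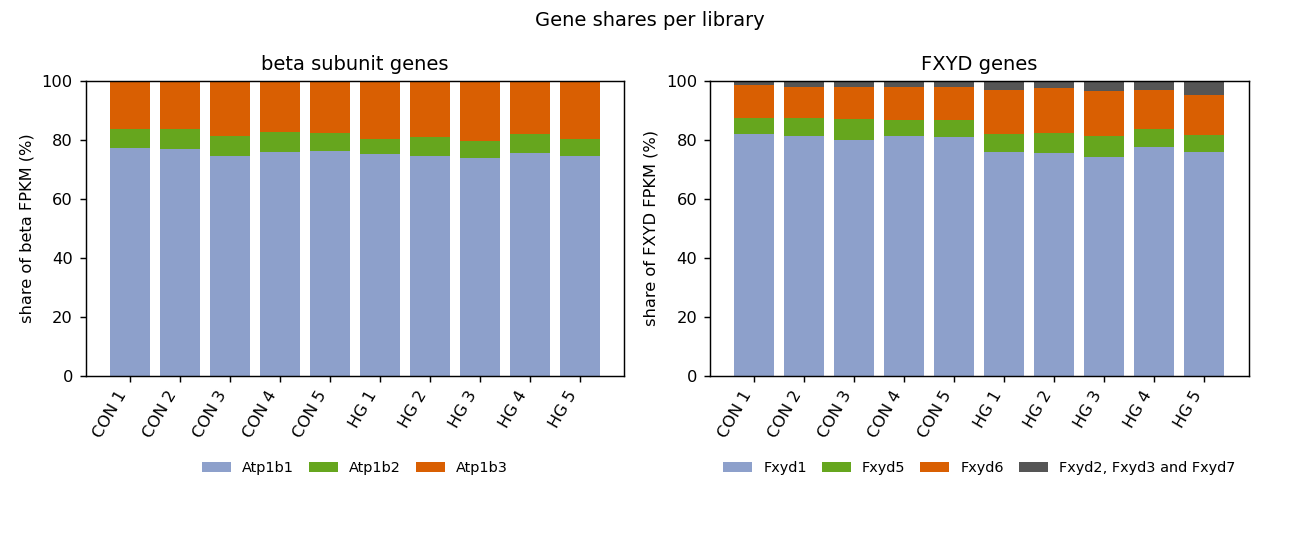
Stacked bars give the share of each gene in the FPKM of the 3 beta subunit genes (left) and of the 6 listed FXYD genes (right), in percent, for each of the 10 libraries. Atp1b3 takes 16.1 to 18.6% of the beta FPKM in CON and 17.96 to 20.2% in HG, and Fxyd1 takes 79.95 to 82.0% of the FXYD FPKM in CON and 74.2 to 77.5% in HG.

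The other relatives were at low levels. Atp1b4, a muscle protein of the beta family that is not part of the pump in placental mammals, had 10 to 72 reads per library (limma log2 fold change -0.33, adjusted p = 0.563). Atp4a, the alpha subunit of the gastric proton pump, was called lower on 3 to 26 reads (limma log2 fold change -0.80 with an SE of 0.281, adjusted p = 0.0395), a call that was lost under several alternatives, with adjusted p up to 0.0925. Atp12a and Atp4b fell below the filter, and Fxyd4 is not among the genes listed here.

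**Figure D4:**
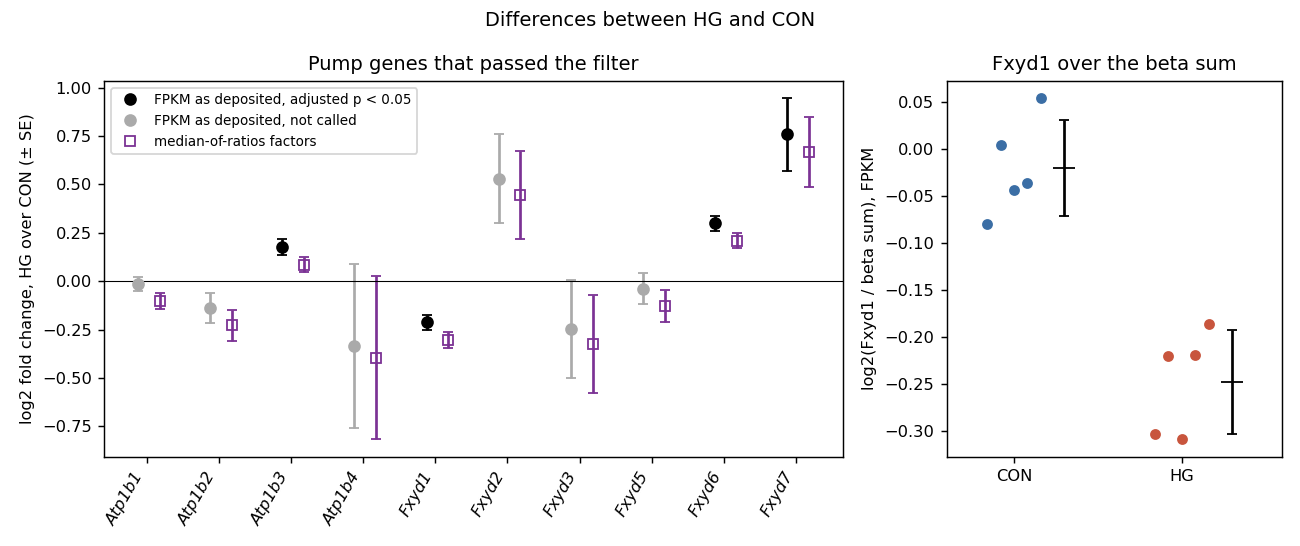
Left, log2 fold change of HG over CON with its standard error for the beta subunit and FXYD genes that passed the filter, from FPKM as deposited (circles, black where called, grey where not) and with median-of-ratios factors (squares). Right, log2 ratio of Fxyd1 to the sum of the 3 beta subunit genes in each library with mean and SD, on an axis that does not start at 0. All squares lie below their circles, and in the ratio the HG libraries lie between -0.31 and -0.19 and the CON libraries between -0.08 and 0.05.

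Genes that work with the pump moved in both directions. Over all genes tested, 28.4% were called higher and 11.8% lower. Among the carriers and pumps that follow, more were lower than higher, and this difference in balance was not tested. Of 17 tested carriers and pumps that use or share the sodium gradient, 2 were higher, 6 were lower and 9 were not called in HG, with a median log2 fold change of 0.09. The taurine carrier gene Slc6a6 rose from 9.14 ± 0.643 to 13.5 ± 0.599 FPKM (SD, n = 5 per group; limma log2 fold change 0.56 with an SE of 0.0556, adjusted p = 1.80e-05). Slc12a7, a potassium-chloride cotransporter gene, fell from 43.9 ± 2.34 to 35.3 ± 2.10 FPKM (limma log2 fold change -0.31 with an SE of 0.0497, adjusted p = 0.000417). The sodium-calcium exchanger of heart muscle, Slc8a1, was not called (limma log2 fold change -0.08, adjusted p = 0.103).

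Of 18 tested hormone receptors, enzymes and kinases known to act on the pump, 3 were higher, 3 were lower and 12 were not called. Their median log2 fold change was 0.00, and the share called over all genes tested was 40.1%. Sgk1, a kinase that corticosteroids induce and that raises pump activity, fell from 6.03 ± 0.342 to 4.70 ± 0.342 FPKM (SD, n = 5 per group; limma log2 fold change -0.35 with an SE of 0.0668, adjusted p = 0.00136). Src, a kinase that can bind the alpha subunit, rose from 11.3 ± 1.61 to 15.7 ± 1.61 FPKM, with overlapping groups (limma log2 fold change 0.48 with an SE of 0.0942, adjusted p = 0.00178). Of the receptors of the hormones that regulate pump genes, the glucocorticoid receptor gene Nr3c1 was called lower (limma log2 fold change -0.19, adjusted p = 0.00731), and the thyroid hormone receptor gene Thra was called lower near the threshold (limma log2 fold change -0.13, adjusted p = 0.0486). The mineralocorticoid receptor gene Nr3c2 (limma log2 fold change -0.16, adjusted p = 0.342) and the second thyroid hormone receptor gene Thrb (limma log2 fold change -0.66, adjusted p = 0.0698) were not called. Thrb had means of only 0.21 FPKM in CON and 0.098 FPKM in HG, so it passed the filter through CON alone.

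Of 10 tested genes of proteins that bind the pump or anchor it, 4 were higher, 2 were lower and 4 were not called. Over all genes tested, 40.1% were called, and the median log2 fold change of the 10 was 0.15. Among the higher ones, Nkain2 had means of 0.07 FPKM in CON and 0.19 FPKM in HG, so it passed the filter through HG alone. The lower ones were the caveolin genes, whose proteins form the membrane pits in which a part of the pumps lies. Cav3, the caveolin of muscle, fell from 102.2 ± 7.96 to 70.3 ± 1.95 FPKM (SD, n = 5 per group; limma log2 fold change -0.54 with an SE of 0.0507, adjusted p = 1.15e-05), and Cav1 fell from 114.5 ± 10.6 to 82.7 ± 6.38 FPKM (limma log2 fold change -0.47 with an SE of 0.0664, adjusted p = 0.000203).

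Whole hearts hold several cell types, and in such libraries fewer cells of a type cannot be told apart from less RNA per cell. The sum of 8 cardiomyocyte markers was 10671 to 11353 FPKM in CON and 9511 to 11141 FPKM in HG (two-sided exact permutation test, p = 0.0317, adjusted p = 0.0571 over 9 cell types), with 7 of 8 called lower, 1 of 8 called higher and none near 0. The higher one was Nppa, which made up a mean of 1733 FPKM of the sum in CON and 2855 FPKM in HG. Without it, a choice made after seeing the data, the 7 other markers summed to 9003 to 9562 FPKM in CON and 6959 to 7648 FPKM in HG. The ratio of HG to CON was 0.918 for the whole sum, 0.780 without Nppa and 0.864 for Fxyd1. On the log2 scale these 7 markers changed by -1.03 to -0.29, each more than Fxyd1 at -0.21. For smooth muscle and pericytes, the sum of 7 markers was 778 to 902 FPKM in CON and 989 to 1242 FPKM in HG (exact permutation test, p = 0.00794, adjusted p = 0.0357), with 3 of 7 called higher and 2 of 7 lower. Acta2, called higher, had the highest mean in it, 538 FPKM in CON and 673 FPKM in HG, and the lower ones were Rgs5 and Cspg4. The sum of 7 endothelial markers was 270.2 to 296 FPKM in CON and 282 to 307 FPKM in HG (exact permutation test, adjusted p = 0.0952), with 3 of 7 called higher and 0 lower. The sum of fibroblast markers was lower, at 1690 to 1954 FPKM in CON and 1533 to 1749 FPKM in HG (exact permutation test, p = 0.0159, adjusted p = 0.0357), with 2 of 7 called higher and 3 of 7 lower. The collagen genes Col1a1, Col3a1 and Col1a2 had the highest means in it, 581, 519 and 417 FPKM in CON. Of the collagen genes only Col3a1 was called, lower, as were Dcn and Postn, while Pdgfra and Tcf21 were called higher. The part of these cell types in the changes of Fxyd1 and Atp1b3 was not tested.

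Neurons, a main site of Fxyd7, left little signal. Their 6 markers summed to 3.62 to 4.66 FPKM in CON and 3.09 to 3.64 FPKM in HG (exact permutation test, p = 0.0159, adjusted p = 0.0357), with 1 of 6 called higher and 2 of 6 lower and with Th and Snap25 near 0. Of 6 glial markers, 5 were listed and summed to 5.02 to 5.78 FPKM in CON and 4.55 to 6.97 FPKM in HG, with none called and with Sox10 near 0. Markers of red cell precursors summed to 61.7 to 112.5 FPKM in CON and 41.3 to 59.3 FPKM in HG (exact permutation test, p = 0.00794, adjusted p = 0.0357), with 5 of 7 called lower. Those of macrophages and leukocytes summed to 34.7 to 44.3 and 36.7 to 50.9 FPKM, with 2 of 8 higher and 2 of 8 lower, and those of epithelium and mesothelium, with Epcam near 0, to 13.3 to 20.2 and 15.2 to 19.9 FPKM, with none called. For glia, macrophages and epithelium the sums did not pass the same exact permutation test, with adjusted p of 0.429 to 0.881. The part of these cells in the pump genes was not tested.

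Within the groups, the members did not form one block. After the group mean was taken from log2(FPKM + 0.1), the highest Pearson r between members over the 10 libraries was 0.66, for Atp1b1 and Atp1b2, and the lowest was -0.43, for Atp1b1 and Atp1b3. Fxyd1 had r of 0.53 with Atp1b1, 0.47 with Atp1b2 and -0.42 with Atp1b3. These values share the scaling of each library and are given as a description. Of the 11708 other genes whose mean reached 1 FPKM, the most alike by this measure was Rer1 for Atp1b1 (r = 0.96), Sord for Atp1b2 (r = 0.95), Ccdc91 for Atp1b3 (r = 0.91), RGD1562987 for Fxyd1 (r = 0.94) and Ccdc51 for Fxyd5 (r = 0.89). Each is the highest of 11708 values over only 10 libraries, where high r can arise by chance, and none was tested.

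Depth differed little between libraries, with 17639895 to 18240006 reads on genes in CON and 16672876 to 19109844 in HG, and 16041 to 16313 genes above 0 in a library. The direction of the calls moved with the scaling, since 70.7% of all called genes were higher in HG as deposited, 47.1% with median-of-ratios factors, 53.0% after quantile normalization and 75.0% with the hemoglobin genes left out.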

How the data were processed

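Stranded mRNA libraries of 5 CON and 5 HG fetal hearts were compared. The authors deposited FPKM per gene, reads divided by gene length and library size, and their processing notes name fastp, HISAT2, HTSeq, R 3.2.0 and the build mRatBN7.2. The whole table was used (0 unused sample columns). DESeq, named in the methods, needs counts and was not applied. The reads behind each value were recovered from the steps between FPKM values, whole within 0.02 reads in 100% of genes.

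Where the mean reached 0.1 FPKM, log2(FPKM + 0.1) was fitted by limma 3.58.1 in R 4.3.3 (trend on expression, no covariate), with Benjamini-Hochberg adjustment over all 14542 genes. Isoform shares and ratios were computed per library in Python 3.11.15 and compared with two-sided exact permutation tests, adjusted over 5. The scripts were tested on simulated data. The members and lists were chosen with earlier results of these data known. Named by rule were the members, their subunit relatives and the 2 smallest adjusted p of each other list. Slc8a1, Nr3c1, Nr3c2, Thra, Thrb and Nkain2 were added after their values were seen. Marker lists were written by hand for 9 cell types. Some genes of these lists are not reported here.

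Alternatives changed the pseudocount (1 or 0.01), the filter (none, or 1 FPKM), the scaling (median-of-ratios, quantile, or without hemoglobin genes) and the model (array weights, untrended variance, a replicate block, voom on recovered reads), with other denominators and each of the 10 libraries left out. Promoter windows came from RefSeq (GRCr8), with coordinates of that build only.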

Additional observations from a re-analysis of the deposited data

Results flagged for a closer look

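A single library stood apart from the others of its group, by Dixon's test for 5 samples, in 2 of the 44 groups of 5 values tested, while chance flags about 1 in 20 such groups. HG replicate 4 had 178 FPKM of Atp1b1, above the 164 to 168 FPKM of the other HG libraries. In CON replicate 5, Atp1b2 held 6.01% of the beta sum, below the other CON libraries, whose lowest was 6.68%.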

How the results depend on the processing

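Among recomputed fold changes, shares and ratios, 389 kept their direction and their side of the threshold, 8 newly passed it, 18 no longer did and 4 changed sign. Counts of called genes stayed within 1.5 times the main count, which does not say that the genes were the same. The log2 fold change of Atp1b1 turned to 0.0093 after quantile normalization, to 0.0110 without hemoglobin genes and to 0.0094 without CON replicate 1, with a range of -0.0317 to 0.0094 over libraries left out in turn. That of Fxyd5 turned to 0.0219 without CON replicate 3, with a range of -0.0809 to 0.0219. The cause was not tested. With all listed FXYD genes as the denominator, the Fxyd1 share gave a difference of -5.30 percentage points (exact permutation test, adjusted p = 0.0198). With each library left out in turn, the difference in share was 1.76 to 2.39 percentage points for Atp1b3, -1.77 to -1.14 for Atp1b1 (called without CON replicate 3 or HG replicate 4), -1.12 to -0.57 for Fxyd1 of Fxyd1 and Fxyd5 (called without CON replicate 3) and -0.80 to -0.45 for Atp1b2 (called without CON replicate 5 or HG replicate 4). At 218 reads, Fxyd5 was the member that depth limited most.

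No pairing of the libraries by replicate number was seen, although this cannot show how they were collected or prepared. Deviations from the group means correlated between same-numbered libraries at 0.11, -0.07, -0.13, -0.03 and 0.01, and 0 of 5 CON libraries correlated best with their own number. With the replicate number as a block, 5096 genes were called in place of 5836, and the same 2 members. With such a block, exact sign-flip permutation allows no p under 0.0625, and the differences of 2.04 percentage points for the Atp1b3 share and of -0.23 for the log2 ratio of Fxyd1 to the beta sum had adjusted p = 0.0625, which says nothing about their stability.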
